A study of Mus musculus with 8 samples.

Results

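The globin genes and 5 genes of the red cell lineage were followed across 6 mouse liver tumours and 2 adenovirus-infected livers. Members were the probe sets whose gene symbols all begin with Hba- or Hbb-, together with those annotated to Alas2, Slc4a1, Epb42, Klf1 or Gata1. This gave 23 of the 45101 probe sets on the tumour arrays, and the same 23 of the 22690 on the adenovirus arrays. Of these, 15 were globin probe sets and 8 were probe sets of the other erythroid genes. Ahsp was listed as well and was not analysed here. The genes were chosen from levels on these same arrays, and the sources used here do not say which, so both comparisons count as used. The values below therefore describe the members, and the fit's results for them support nothing.

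All mice lacked p53 (p53-/-) and were on the C57BL/6J background. The tumours were hepatocellular carcinomas (HCC), 1 per array, from mice 12 to 15 months of age that also carried the HBs transgene. The telomerase RNA was present in the mice of 3 tumours (mTERC+) and missing in those of the other 3 (mTERC-), so the question of that contrast is how carcinomas differ when they arise without telomerase. In the adenovirus experiment, p53-/- livers were taken 48 h after intravenous Ad TRF2DBDM, a virus for a truncated telomere-binding protein, or after Ad GFP as its control. Each of those 2 arrays carried RNA pooled from 3 mice, so that pair has no replicate error and was not tested. The sources used here give neither the promoter of the HBs transgene nor whether blood was flushed from the livers. The tissue is labelled as hepatocytes, while the study design speaks of liver and tumour RNA, and markers of other cells were present on the arrays (the macrophage gene Adgre1 had signals of 192.9 to 1180.9 in the tumours).

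Haemoglobin is a tetramer of alpha-type and beta-type globin chains, each holding a heme group, and fills circulating red cells. In mice the alpha chains of the adult come from Hba-a1 and Hba-a2, while Hba-x, Hbb-y and Hbb-bh1 are embryonic globin genes. C57BL/6 mice carry the beta-globin haplotype whose adult genes are Hbb-bs and Hbb-bt, and the names Hbb-b1 and Hbb-b2 belong to the other common haplotype. The liver makes red cells before birth, whereas in the adult its globin mRNA comes mainly from immature red cells in blood or from red cell formation outside the bone marrow.

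Alas2 is the heme synthesis enzyme that red cell precursors use, and Slc4a1 (band 3) and Epb42 (protein 4.2) belong to the red cell membrane. Klf1 and Gata1 encode transcription factors of the lineage. GATA1 binds sites built around GATA, and KLF1 binds CACCC boxes, so the bases before the start sites were searched on both strands for GATAA and for CCNCNCCC. The windows span 250 bases upstream of each start in RefSeq on build GRCm38.p6, and 10 of the 14 member gene symbols had one. They are shown for the adult globin genes and Alas2, whose probe sets the results turn on, and for Hbb-y as an embryonic gene of the same cluster. Capitals mark every match to either motif, and overlapping matches were counted separately.
Hba-a1: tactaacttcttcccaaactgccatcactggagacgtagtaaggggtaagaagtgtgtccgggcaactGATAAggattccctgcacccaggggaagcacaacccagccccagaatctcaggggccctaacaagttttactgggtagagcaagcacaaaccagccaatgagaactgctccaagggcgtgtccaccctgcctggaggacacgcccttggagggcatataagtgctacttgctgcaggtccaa
Hbb-bs: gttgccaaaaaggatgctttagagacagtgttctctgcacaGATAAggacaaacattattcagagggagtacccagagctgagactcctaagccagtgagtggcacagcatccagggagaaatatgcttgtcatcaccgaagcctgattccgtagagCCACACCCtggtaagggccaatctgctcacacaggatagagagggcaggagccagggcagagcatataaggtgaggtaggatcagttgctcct
Hbb-bt: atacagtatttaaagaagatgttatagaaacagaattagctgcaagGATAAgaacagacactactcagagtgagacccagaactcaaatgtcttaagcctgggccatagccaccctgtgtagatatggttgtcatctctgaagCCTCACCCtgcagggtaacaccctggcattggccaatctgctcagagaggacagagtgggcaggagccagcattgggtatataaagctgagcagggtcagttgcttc
Alas2: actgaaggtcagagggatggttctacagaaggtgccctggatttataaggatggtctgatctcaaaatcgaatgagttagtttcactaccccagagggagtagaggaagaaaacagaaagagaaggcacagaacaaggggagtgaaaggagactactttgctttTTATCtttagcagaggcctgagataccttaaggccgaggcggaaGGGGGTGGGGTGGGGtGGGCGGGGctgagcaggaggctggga
Hbb-y: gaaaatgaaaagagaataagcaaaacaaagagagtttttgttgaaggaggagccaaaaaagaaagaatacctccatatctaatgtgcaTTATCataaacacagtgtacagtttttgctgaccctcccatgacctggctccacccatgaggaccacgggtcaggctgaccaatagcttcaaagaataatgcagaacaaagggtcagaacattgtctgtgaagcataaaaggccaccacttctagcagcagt

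The Hba-a1 window lies at chr11:32283422-32283671 (plus strand) and the Alas2 window at chrX:150547167-150547416 (plus strand). The other windows shown lie in the beta-globin cluster, Hbb-bs at chr7:103827929-103828178 (minus strand), Hbb-bt at chr7:103813924-103814173 (minus strand) and Hbb-y at chr7:103853208-103853457 (minus strand). The window of Hba-a2 was identical to that of Hba-a1 over all 247 bases compared at an offset of 3 bases. Hbb-bs and Hbb-bt matched at 127 of 249 bases (51%) in their best alignment without gaps. GATAA was found in 9 of the 10 member windows, against 22.6% of the 32851 windows in the table. Gata1 was the member without it. CCNCNCCC was found in 5 member windows, against 45.9% of all windows, with 4 matches before Alas2, 1 each before Hbb-bs and Hbb-bt and none before Hba-a1, Hba-a2 or Hbb-y. This pattern does not stand for every CACCC box. The letters caccc occur in the windows of Hba-a1, Hba-a2 and Hbb-y without matching it, and the Alas2 match GGGCGGGG holds no CACCC on either strand. Both motifs stood in 4 member windows, against 6.89% of all windows. A match describes the letters of the window and does not show that a factor binds there.

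Signals are the MAS5 values deposited by the authors, in arbitrary units, which allow no comparison of levels between probe sets. Differences are given as log2 of the signal plus 32, mTERC- minus mTERC+, and folds are these differences turned back from log2, not ratios of the mean signals. Array medians ran from 54.5 to 59.4 in 5 tumours and reached 75.1 in mTERC- tumour 2. The 3'/5' ratio of the Gapdh control, a sign of RNA quality, was 13.8 on that array and 0.983 to 1.18 on the others. The 18S control signal was 318.5 on the array of mTERC- tumour 2 and 349 on that of mTERC- tumour 3, against 11009.8 to 27809.9 on the other 4 arrays. Both low arrays were mTERC-, so a fit with the 18S level as a block compares only mTERC- tumour 1 with the mTERC+ tumours. A limma fit across 22519 probe sets at or above the median level called 1 of them (0.00444% of those tested), which was the neutrophil gene S100a8, and its p-values measure the spread between these tumours.

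Adult globin RNA had a lower mean level in the mTERC- tumours on each of the 4 probe sets that read several adult globin genes at once, by a median log2 difference of -1.10. Taken from the mean log2 levels, these differences were 1.58-fold to 4.74-fold. The mean log2 level of Alas2 was also lower, by 3.5-fold. The remaining 18 member probe sets lay close to or below the median of the arrays and moved in both directions. None of the 9 member probe sets that were tested passed at an adjusted p of 0.05, with adjusted p from 0.212 to 0.995 in limma, and 4 of them had an unadjusted p below 0.05, where 4.84% of all tested probe sets did. Because the members were proposed from these arrays, nothing is read from those shares.

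The beta-globin probe set 1417184_s_at reads Hbb-bs, Hbb-bt, Hbb-b1 and Hbb-b2, which it cannot tell apart. Its signal was 8693.5, 9973.5 and 7367.8 in mTERC- tumours 1, 2 and 3, and 20994.1, 16886.2 and 25567.9 in mTERC+ tumours 1, 2 and 3. Every mTERC- tumour was below every mTERC+ tumour. The means were 8678 ± 1303 and 21150 ± 4343 (SD, n = 3 each). The difference of the mean log2 levels was -1.27 (SE 0.31) or 2.42-fold. With the 18S level as a block, which leaves only mTERC- tumour 1 against the mTERC+ tumours, the difference was -1.26. With each tumour left out in turn it lay between -1.42 and -1.13.

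Of the 3 probe sets for the alpha-globin genes Hba-a1 and Hba-a2, 1417714_x_at showed the widest gap. It read 190.4, 410.1 and 208.0 in the mTERC- tumours and 1122.5, 1046.7 and 1988.9 in the mTERC+ tumours. The groups did not overlap. The means were 269.5 ± 122.1 and 1386 ± 523.5 (SD, n = 3 each). The difference of the mean log2 levels was -2.25 (SE 0.39), or 4.74-fold. In limma its adjusted p was 0.212. It passed the threshold with no filter on level (adjusted p = 0.00404 in limma), with array weights (0.0421) and without mTERC- tumour 2 (0.0396), and over all alternatives its adjusted p ran from 0.00404 to 0.934.

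The other alpha-globin probe sets overlapped between the groups. Probe set 1452757_s_at read 8358.5, 14607.7 and 8202.0 in mTERC- tumours against 19818.1, 13086.2 and 26274.2 in mTERC+ tumours. The means were 10390 ± 3654 and 19730 ± 6594 (SD, n = 3 each). The difference of the mean log2 levels was -0.92 (SE 0.35). Here mTERC- tumour 2 was above mTERC+ tumour 2, which was the lowest of its group. Probe set 1428361_x_at read 21743.0, 39505.6 and 15615.0 against 36164.5, 33121.3 and 44114.6, with a log2 difference of -0.66 (SE 0.36). On it mTERC- tumour 2 stood above 2 of the mTERC+ tumours, and the difference was -1.03 without that tumour and -0.36 without mTERC- tumour 3.

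Alas2, read by probe set 1451675_a_at, gave 390.7, 69.7 and 261.2 in the mTERC- tumours and 886.4, 600.9 and 893.7 in the mTERC+ tumours. The groups did not overlap, and mTERC- tumour 2 was far below the other tumours. The means were 240.5 ± 161.5 and 793.7 ± 167 (SD, n = 3 each). The difference of the mean log2 levels was -1.81 (SE 0.46). Unlike the globins, Alas2 was lowest on the array with the high Gapdh ratio, whose part in the result was not tested. Without that tumour the difference was -1.21. With the 18S level as a block it was -0.94, from mTERC- tumour 1 against the mTERC+ tumours. Over the other alternatives the adjusted p of Alas2 ran from 0.2 to 0.997 in limma.

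**Figure D1:**
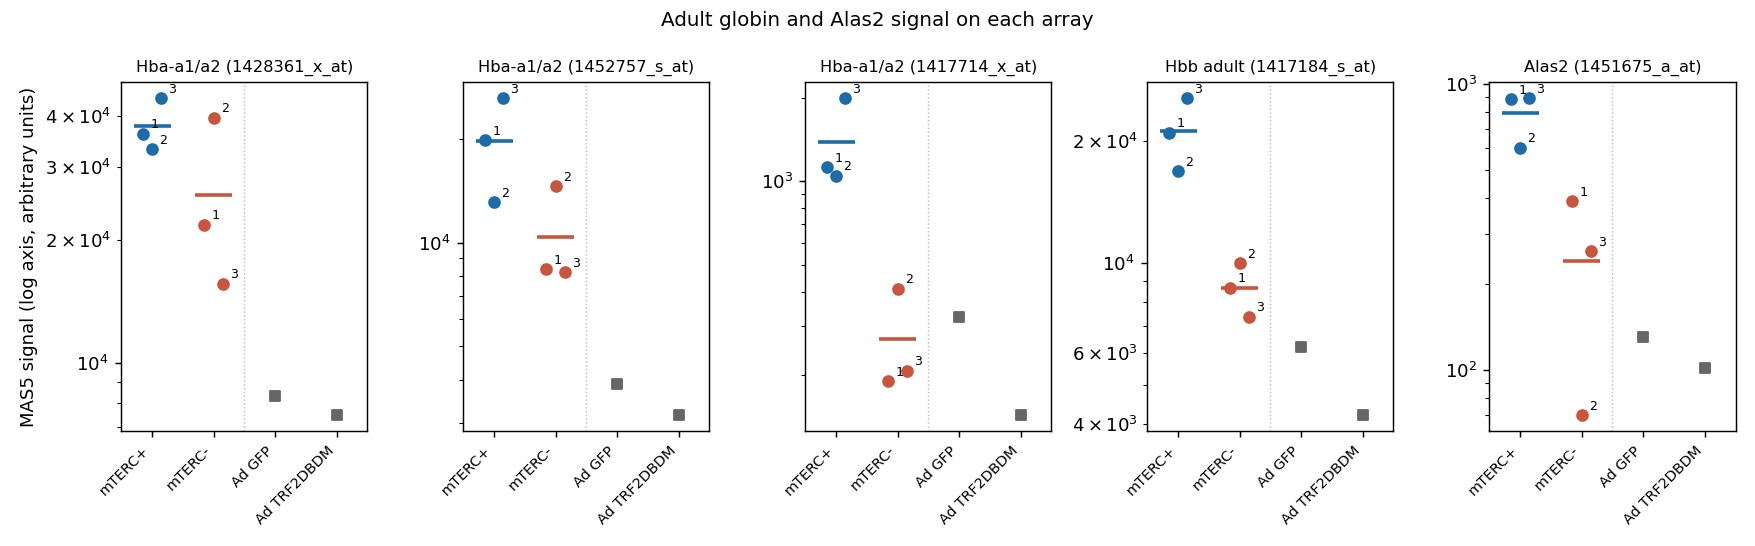
Signal (log axis, arbitrary units) of the 4 adult globin probe sets and Alas2 on each array, with numbered tumours as circles, group means as lines and the adenovirus arrays as squares; each panel has its own axis, and tumour and adenovirus arrays were normalized separately. The mTERC- tumours lie below the mTERC+ tumours without overlap for 1417714_x_at, 1417184_s_at and Alas2, and overlap them for 1428361_x_at and 1452757_s_at.

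These 3 non-overlapping probe sets were 3 of the 9 members tested, where 4.41% of all tested probe sets were lower in mTERC- without overlap, and 0 of 9 were higher without overlap, where 5.71% were. The choice of members leaves these shares without meaning for them. In a tumour, less globin RNA per red cell and fewer red cells or precursors cannot be told apart. Leaving out single tumours changed the sizes but no sign of the differences of the 4 adult globin probe sets and Alas2. For the 3 probe sets without overlap no sign could change, so their steady sign adds nothing to the lack of overlap.

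**Figure D2:**
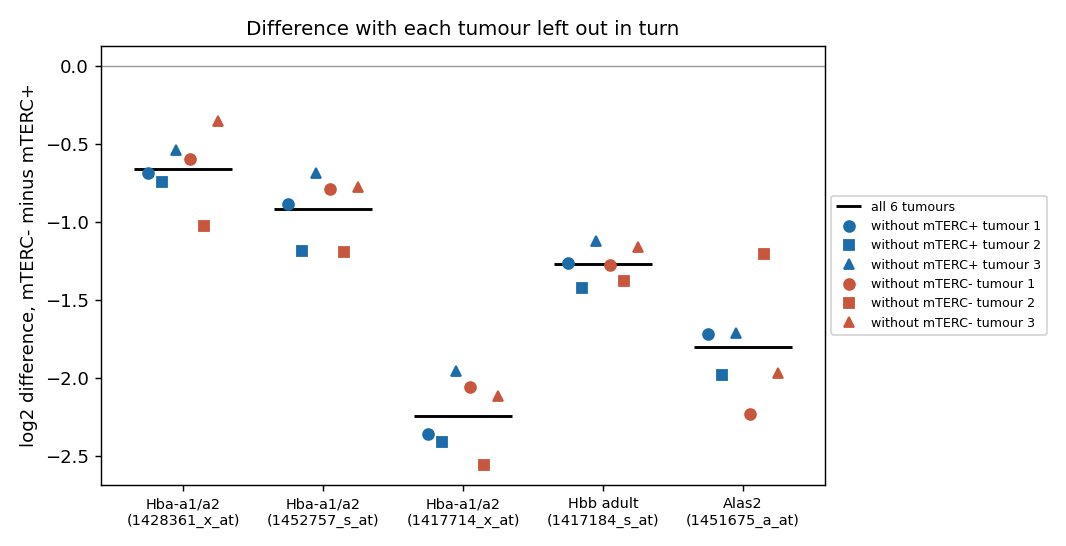
Log2 difference, mTERC- minus mTERC+, of the 4 adult globin probe sets and Alas2 with all 6 tumours (black line) and with each tumour left out in turn (symbols). All values are below 0, which was fixed in advance for the probe sets whose groups do not overlap. Alas2 moves from -1.81 to -1.21 without mTERC- tumour 2, and 1428361_x_at from -0.66 to -0.36 without mTERC- tumour 3.

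The genes of the red cell membrane gave low signals, with a lower mean level in mTERC- tumours on 2 of the 3 Slc4a1 probe sets and a higher one on both of Epb42. For band 3, Slc4a1, probe set 1416464_at read 56.4, 52.5 and 11.2 in mTERC- tumours and 115.4, 24.4 and 86.2 in mTERC+ tumours, with overlap and a log2 difference of -0.54 (SE 0.61). That difference was -0.20 without mTERC- tumour 3, -0.25 without mTERC+ tumour 1, -0.94 without mTERC+ tumour 2 and -0.17 with the 18S level as a block. A second Slc4a1 probe set, 1434502_x_at, read 16.5, 15.9 and 21.6 against 46.0, 49.5 and 76.3 and was lower in mTERC- without overlap (-0.82), at levels below the filter. The third, 1431743_a_at, read 11.6, 88.0 and 6.0 against 8.6, 7.5 and 6.3 and stood out only in mTERC- tumour 2, with a difference of 0.57 that was 0.045 without that tumour.

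Epb42, whose protein links band 3 to the membrane skeleton, went the other way on both of its probe sets, at levels too low to be tested. Probe set 1417338_at read 32.4, 18.8 and 61.8 in mTERC- tumours and 4.1, 4.1 and 6.7 in mTERC+ tumours, higher in mTERC- without overlap. Probe set 1417337_at read 59.0, 16.0 and 27.8 against 26.6, 33.0 and 5.6 and overlapped. Most of these Epb42 values were below the median of their array, on 5 of the 6 tumour arrays for either probe set.

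The transcription factors did not separate the groups. Klf1 read 74.1, 183.6 and 60.4 in mTERC- tumours and 90.1, 64.2 and 54.6 in mTERC+ tumours, a log2 difference of 0.35 (SE 0.50) that rested on mTERC- tumour 2 and was -0.02 without it. Gata1 read 42.8, 60.3 and 8.2 against 21.3, 45.7 and 23.3 and was below the array median in all 6 tumours. Over the 8 erythroid probe sets the median log2 difference was 0.19, with 3 lower and 5 higher, and over all 22519 probe sets tested it was 0.03.

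Probe sets annotated to 1 adult globin gene had a higher mean level in mTERC- tumours for Hba-a1 and Hba-a2 and a lower one for Hbb-b2. Their signals were low, below the array median on 3 of the 6 tumour arrays, or on 4 for 1427866_x_at, so these directions say little of the genes. Hba-a2 on 1427219_at read 64.9, 180.5 and 7.1 in mTERC- tumours and 53.2, 45.7 and 66.9 in mTERC+ tumours, with a log2 difference of 0.10 (SE 0.63) that was -0.50 without mTERC- tumour 2. Hba-a1 on 1453574_at read 59.9, 51.7 and 71.3 against 67.4, 46.2 and 13.0, with a difference of 0.40 that was 0.07 without mTERC+ tumour 3. The groups overlapped on both. Hbb-b2, a name of the other beta-globin haplotype, read 61.7, 18.8 and 17.9 against 85.4, 55.0 and 64.7 on 1427865_at and 48.3, 7.4 and 9.2 against 64.5, 70.5 and 6.6 on 1427866_x_at. Their log2 differences were -0.69 and -0.52. With the 18S level as a block, which left mTERC- tumour 1 against the mTERC+ tumours, they were -0.09 and 0.15. The groups overlapped on these as well.

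The embryonic globin genes were at the floor of the arrays. Of the 42 tumour values of the 7 probe sets for Hba-x, Hbb-y and Hbb-bh1, 37 were below the array median, and the signals ran from 3.9 to 126.9. The highest value was Hbb-bh1 on 1437810_a_at in mTERC+ tumour 1 (126.9), which read 5.9 to 21 in the other 5 tumours. The other probe sets of Hbb-bh1 and those of Hbb-y and Hba-x had a log2 difference between -0.51 and 0.72, with every pair of groups overlapping. For the 11 globin probe sets annotated to 1 gene the median log2 difference was 0.06, and for all 15 globin probe sets it was -0.51.

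**Figure D3:**
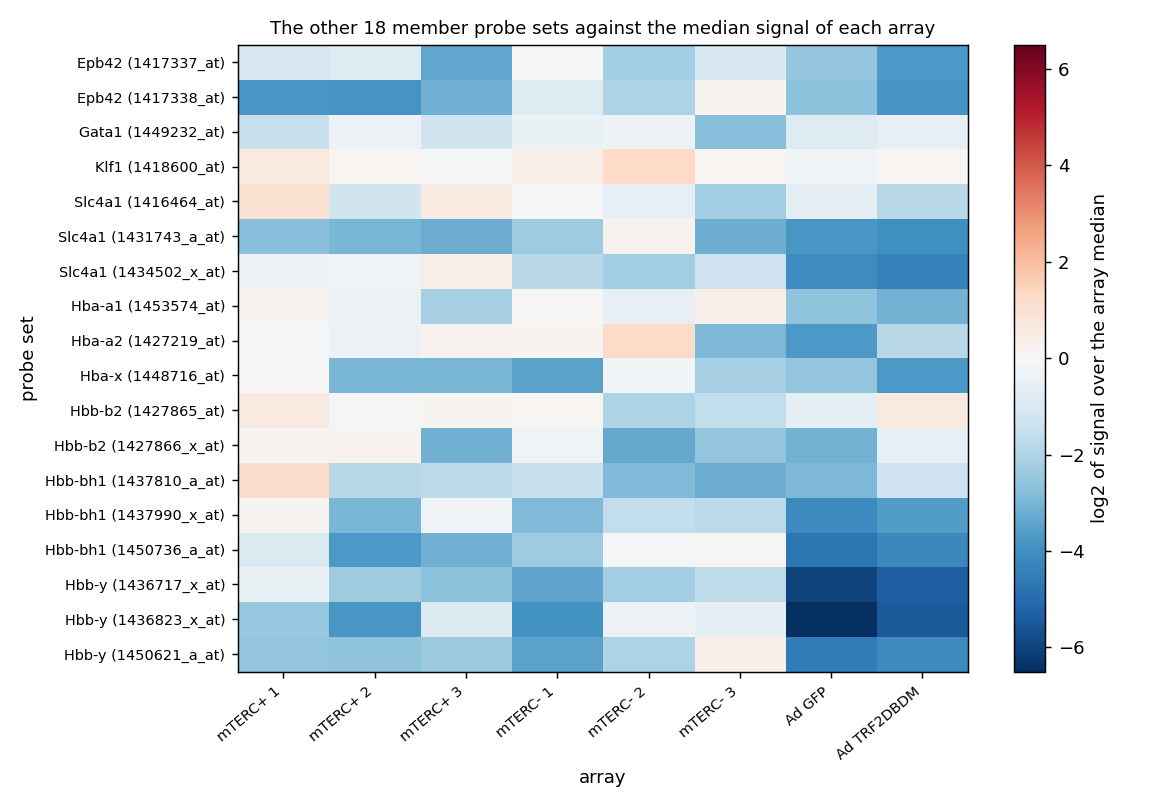
Signal of the other 18 member probe sets on each array as log2 of the ratio to that array's median (blue below, red above). Of the 108 tumour values, 81 lie below the array median, as do 34 of the 36 adenovirus values.

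In the adenovirus experiment the adult globin signals were lower after Ad TRF2DBDM than after Ad GFP on the same 4 probe sets, by a median log2 ratio of -0.43, with 1 array on each side. On 1417184_s_at the beta-globin signal was 4201.3 after Ad TRF2DBDM and 6180.3 after Ad GFP, a log2 ratio of -0.55. The alpha-globin probe set 1417714_x_at read 143.9 and 325.2, a log2 ratio of -1.02 or 2.03-fold. It was the 1 member of 7 compared that was at least 2-fold lower, where 3.2% of 12391 probe sets were. None of the 7 (0 members) was at least 2-fold higher, where 4.25% were. With a pseudocount of 64 the ratio of 1417714_x_at was -0.91, under 2-fold.

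The other alpha-globin probe sets differed less between these livers. Probe set 1452757_s_at read 3154.9 after Ad TRF2DBDM and 3892.1 after Ad GFP, and 1428361_x_at read 7482.1 and 8328.1. Alas2 read 101.8 and 130.9, a log2 ratio of -0.28. With the arrays centred on their medians, all probe sets compared shifted to a median log2 ratio of -0.14, with ratios of -0.74 on 1417184_s_at, -1.18 on 1417714_x_at, -0.49 on 1452757_s_at, -0.34 on 1428361_x_at and -0.43 for Alas2.

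Other members were higher after Ad TRF2DBDM. Klf1 read 56.8 against 41.2, Gata1 36.4 against 25.8 and Hbb-b2 on 1427865_at 79.1 against 30.9, the last a log2 ratio of 0.82. The array medians were 52.5 after Ad TRF2DBDM and 46.1 after Ad GFP, so Gata1 was below both and was not compared. Klf1 and Hbb-b2 were below the median after Ad GFP. With median centring the log2 ratios were 0.17 for Klf1, 0.15 for Gata1 and 0.71 for Hbb-b2. The embryonic globin probe sets read 0.5 to 20.9, and all 14 of their values were below the array medians. No Slc4a1 or Epb42 probe set reached the median of either array. Over all 15 globin probe sets the median log2 ratio was 0.03 and over the 8 erythroid probe sets it was -0.07.

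**Figure D4:**
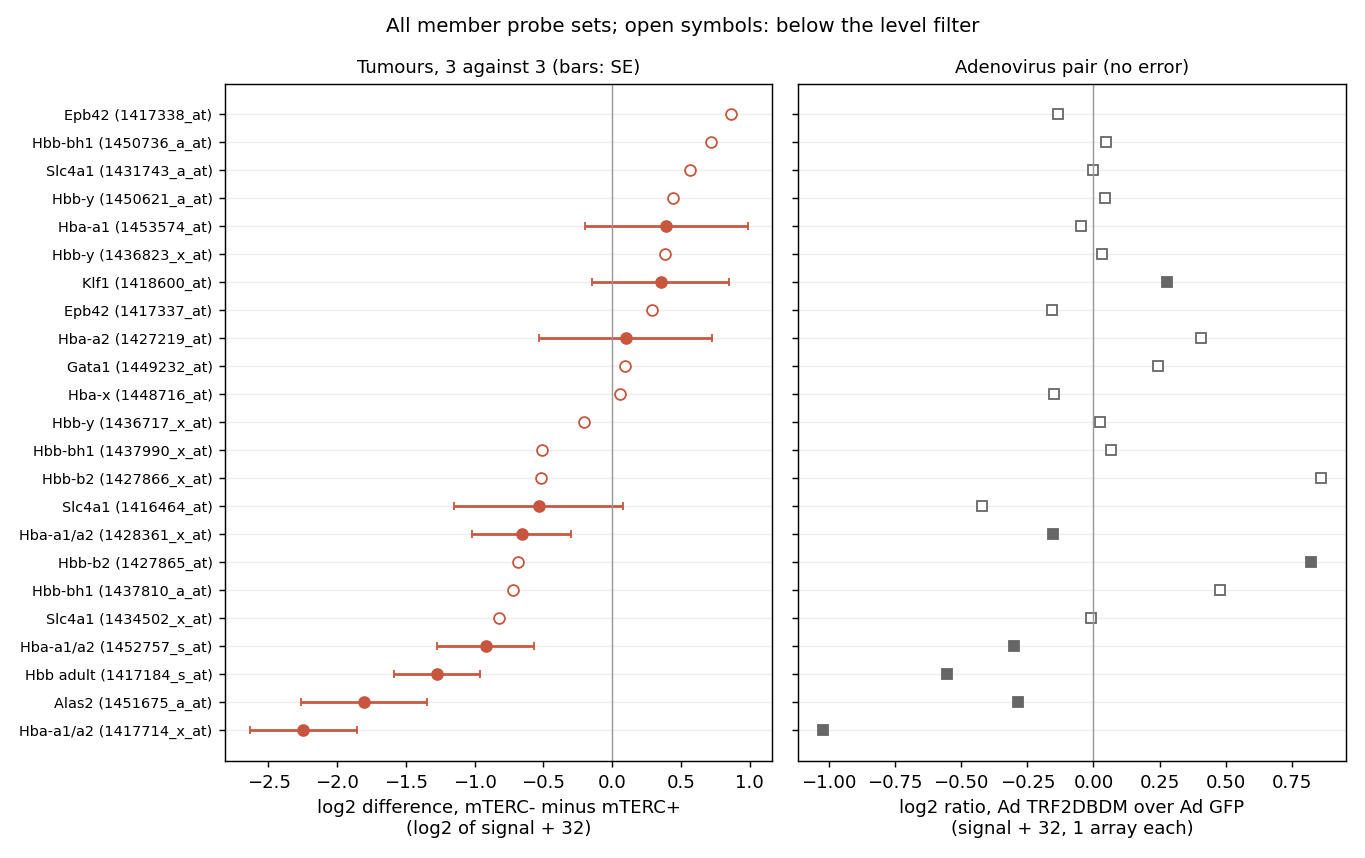
Log2 difference of every member probe set between tumour groups (left, mTERC- minus mTERC+, bars SE of the fit, n = 3 each) and between the adenovirus livers (right, Ad TRF2DBDM over Ad GFP, 1 array each, no error); open symbols are probe sets below the level filter. The tumour values run from -2.25 for the alpha-globin probe set 1417714_x_at to 0.87 for Epb42 on 1417338_at. Below 0 in both panels are the same 4 adult globin probe sets, Alas2, and Slc4a1 on 1416464_at and 1434502_x_at.

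Scaled to the same mean over the shared probe sets, every tumour was above both infected livers on 1452757_s_at (lowest tumour 1.05 times the higher liver), and not on the other adult globin probe sets or Alas2. The lowest tumour had 0.597 times the higher adenovirus value for beta-globin on 1417184_s_at, 0.286 times on 1417714_x_at, 0.938 times on 1428361_x_at and 0.293 times for Alas2. The median tumour was 1.34, 1.6 and 2.17 times the mean of the adenovirus pair on these globin probe sets in turn, 2.07 times on 1452757_s_at and 2.11 times for Alas2. These tables were normalized separately and come from different array types, and the median tumour was 2.49 times the pair for the hepatocyte gene Alb, so levels are set side by side only as a description.

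Other genes of the red cell lineage are given by role, as counts of means with no test of a list. Of 12 tested genes of the red cell membrane, 8 had a higher mean in mTERC- tumours, 4 a lower one, and none passed in limma, with a median log2 difference of 0.14. Aqp1, a water channel also found in endothelium, had -0.99 (SE 0.42), at 442.8 ± 226.8 in mTERC- and 855.1 ± 261.1 in mTERC+ (SD, n = 3 each). Heme synthesis genes, of which Alas1 serves other cells, gave 5 higher and 6 lower of 11 tested, with none passing. The largest difference named among them was that of Cpox, at 1.05 (SE 0.54), while Alad had -0.43.

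Among 11 tested erythroid regulators, 5 were higher and 6 lower and none passed. Nfe2, a factor of red cells and megakaryocytes, read 118.1, 12.9 and 17.8 in mTERC- tumours and 102.6, 135.0 and 217.1 in mTERC+ tumours, with a log2 difference of -1.35 (SE 0.55) and overlap through mTERC- tumour 1. Zfpm1, the partner of GATA1, had 0.47 and was the 1 regulator higher without overlap, while 1 other was lower without overlap. Of all tested probe sets, 5.71% were higher and 4.41% lower without overlap, so nothing is read from single genes of this kind. Of 12 other erythroid enzymes and receptors tested, 10 had a lower mean in mTERC- tumours and none passed, with a median of -0.40. Carbonic anhydrase Car2 had -1.20 (SE 0.54), and Ube2l6, a ubiquitin-conjugating enzyme also induced by interferon, had -0.67 and was lower without overlap.

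Genes for the clearance, transport and breakdown of haemoglobin and heme gave 4 higher and 5 lower of 9 tested, with none passing. Hmox1, the enzyme that breaks heme down, read 113.1, 131.6 and 161.6 in mTERC- tumours and 623.1, 848.0 and 92.1 in mTERC+ tumours. The last of these, mTERC+ tumour 3, had the highest beta-globin signal of all 6 tumours and the lowest Hmox1. Among genes that signal to red cell formation, 2 were higher and 4 lower of 6 tested. Of the 2 hepcidin genes, Hamp2 had -0.83 (SE 0.50) and Hamp 0.32 (SE 0.74). In the adenovirus pair Hamp2 read 7612.0 after Ad TRF2DBDM and 1097.5 after Ad GFP, while Hamp read 6777.3 and 6375.5. Tfr2, a transferrin receptor of liver and red cell precursors, read 1138.0 and 496.8.

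Markers of other cells moved with the tumour groups in part. All 9 tested neutrophil markers had a higher mean in mTERC- tumours, with summed signals of 30260 to 55740 against 20560 to 30470. Each sum is weighted towards its brightest probe sets. Most of the neutrophil sum was Lcn2, at 21079.4 to 33516.6 against 20103.9 to 29157.6, with a log2 difference of 0.045. All 9 tested markers of macrophages that take up red cells had a lower mean, with sums of 4524 to 8415 against 4163 to 32240. Within mTERC+, the macrophage sum was 14410, 32240 and 4163 in tumours 1, 2 and 3, while the beta-globin signal was highest in tumour 3, where that sum was lowest. Of 10 tested endothelial genes 9 had a lower mean, with sums of 1091 to 2077 against 1742 to 3051. Of 6 tested platelet genes 4 had a lower mean and 2 a higher one, with a median log2 difference of -0.007. Sums of the platelet list were 809 to 1306 against 923.5 to 2312. The hepatocyte sums overlapped, at 129700 to 206600 against 152400 to 195200. The part of other cells in the globin difference was not tested.

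The genes whose levels were most like the members over the 6 tumours were taken from 11588 candidate probe sets, as a description with no test. In the globin reference the dim probe sets annotated to 1 adult globin gene weighed as much as the bright ones. Closest to the mean of the 8 adult globin probe sets were Sema6d (Pearson's r = 0.978), Fam102b (0.977), Plekha6 (0.971), Zeb2 (0.97), Hk1 (0.968), Sgce (0.967), Heatr1 (0.967) and Wdr46 (0.966). Closest to Alas2 were Rarres2 (0.995), Ndrg2 (0.993), Tbc1d17 (0.991), Slc12a7 (0.989), Wapl (0.987), Fdft1 (0.986), S100a1 (0.985) and Dcaf11 (0.985). Each of the 8 in either set was lower in mTERC- without overlap. All 8 of the second set were lowest in mTERC- tumour 2, the array with the high Gapdh ratio, as Alas2 was. Because the genes were picked by likeness over these same 6 tumours, both traits follow largely from the choice. Of the 11588 candidates, 69 reached an r of 0.9 over these 6 points for the globins and 246 for Alas2.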

How the data were processed

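Total RNA was hybridised to Affymetrix arrays, 6 of tumours (3 mTERC+ and 3 mTERC-) and 2 of adenovirus livers. The authors deposited linear signal intensities, made with MAS5 per the submitters' processing notes. Neither its version nor its scaling target is given in the sources used here. The number of arrays limits the precision. Gene symbols came from the platform annotation, and promoter windows from RefSeq.

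Signals were used as scaled by the authors and taken as log2 of the signal plus 32. Of 45037 probe sets without controls, the 22519 at or above the median level were fitted with limma 3.58.1 (R 4.3.3, variance trend, two-sided, Benjamini-Hochberg adjustment, threshold 0.05). The adenovirus pair was compared by ratio for probe sets at or above the median of at least 1 array. In simulated tumours, 34 of 100 probe sets changed 4-fold and 73 of 100 changed 8-fold were called, and so were 5 of the 22319 unchanged ones.

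The members and gene lists were chosen with earlier results of these data known. All members are named, with up to 4 genes of each list (the smallest p in tumours, the largest ratio in the adenovirus pair) and the 8 genes most like the globins or Alas2. A gene was read from its probe set of 1 symbol with the highest mean. The adjusted p-values measure the spread between tumours. Alternatives were quantile normalization, median centring, pseudocounts of 1 and 64, no filter on level or one at percentile 75, no variance trend, array weights, a block for 18S level, 1 probe set per gene, only probe sets with 1 symbol and each tumour left out. Terc, Trp53 and Ahsp were not analysed here.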

Additional observations from a re-analysis of the deposited data

How the results depend on the processing

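The number of probe sets called in the tumours was 1, S100a8, which was also the 1 call with quantile normalization, a pseudocount of 64 and 1 probe set per gene. With the 18S block only mTERC- tumour 1 was set against the mTERC+ tumours, so no count is given for it. The count was 0 with median centring, a pseudocount of 1, a filter at percentile 75 or no variance trend. It was 3 with array weights and 9 with no level filter, and ran from 0 to 6 with each tumour left out. The median log2 difference of the globins (-0.51) ran from -0.50 to -0.16 with each tumour left out, and was 0.056 with only probe sets of 1 symbol. That of the erythroid probe sets (0.19) ran from -0.09 to 0.39, and fell below 0 without mTERC- tumour 2. In the adenovirus pair a pseudocount of 1 gave 0.44 for the globins, against 0.03, and -0.22 for the erythroid probe sets, against -0.07. Klf1 changed sign without mTERC- tumour 2 (-0.023), and its log2 difference ran from -0.023 to 0.59 with each tumour left out. Hba-a2 on 1427219_at changed sign with a pseudocount of 1 (-0.28), array weights (-0.20) and without mTERC- tumour 2 (-0.50), and ran from -0.50 to 0.73 with each tumour left out. The cause of these changes was not tested. Differences of dim probe sets depend on the pseudocount, and the adenovirus pair has no error. No paired analysis was possible because the labels give no replicate numbers shared between the groups.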

Other observations

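Cell division genes, which are not members, had a higher mean level in mTERC- tumours on all 8 probe sets tested, with a median log2 difference of 0.72 and none passing in limma. The summed signal of the 9 listed genes on the array was 460.9 in mTERC+ tumour 3, while mTERC+ tumours 1 and 2 (1806 and 1757) lay within the range of the mTERC- tumours (1598 to 2869). They were lower after Ad TRF2DBDM on all 8 compared, with a median log2 ratio of -0.49. The hepatocyte list had a median of -0.05 in the tumours and 0.70 in the adenovirus pair. The neutrophil list had medians of 1.58 and -0.57, and the macrophage list -0.83 and 0.83. The mast cell and basophil list had 2 tested genes, both with a lower mean in mTERC- tumours. Over its 9 genes on the array, 5 means were higher and 4 lower, with a median log2 difference of 0.065. These medians are descriptions of lists chosen with earlier results known.

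When likeness was measured against the 4 several-gene adult globin probe sets alone, an alternative chosen after seeing the data, the closest genes were Clhc1 (Pearson's r = 0.992 over the 6 tumours), Rnft1 (0.981) and Hspg2 (0.981). None of the 8 genes closest by that measure was among the 8 named above for the adult globins.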
